A study of Drosophila melanogaster with 24 samples.

Results

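Embryos rescued with the K26A mutant of HDAC3 were compared with control embryos across all genes. The 4 K26A rescue samples and the 4 control samples, out of 24 samples of 6 genotypes, were chosen by the genotype in their labels and paired by replicate number. All were whole Drosophila melanogaster embryos collected 2 to 4 h after egg laying at 25°C, and their total RNA was sequenced. Control embryos (tub-GAL4/+) came from mothers that carried the maternal α-tubulin GAL4 driver alone. In K26A rescue embryos the same driver expressed an shRNA against HDAC3 in the mother's germline, and the mother carried 1 copy of an shRNA-resistant HDAC3 transgene, with the gene's own promoter and lysine 26 changed to alanine, at the attP40 site of the second chromosome. The shRNA came from an insertion at attP2 in a stock marked with y, sc, v and sev alleles, so that K26A rescue and control differed by the hairpin, the transgene and the parental chromosomes together. The WT rescue carried the same hairpin and landing site with the unmutated protein, the HDAC3 shRNA embryos carried the hairpin alone, and the HEBI rescue carried a protein changed in its contacts with the corepressor SMRTER. The Y303F rescue carried a change in the active site and, per the study, also made HDAC3 RNA from the endogenous locus. Per the study, both mutants had reduced catalysis, SMRTER binding was weakly reduced in K26A and strongly in HEBI, and K26A and WT rescue restored the protein in part. The driver mothers were crossed to hairpin males and their daughters and sons were mated to give the embryos, so that the embryos of a sample varied in how many copies of hairpin and transgene they carried themselves.

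HDAC3 is a class I histone deacetylase that works with the corepressor SMRTER (Smr) to remove acetyl groups from histones at repressed genes. In the window sampled, the embryo passes from RNA deposited by the mother to RNA of its own genome: blastoderm and segmentation genes are switched on in sequence, cells form, and gastrulation begins. Genes of differentiated epidermis, muscle, gut, blood cells and nerve cells are normally used later, so their RNA is scarce at this age and rises with the age of the embryos in a collection. In whole embryos, fewer cells of a type and less RNA per cell cannot be told apart.

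The study told endogenous from shRNA-resistant HDAC3 RNA in the reads of its RNA-seq. It reports very little HDAC3 RNA in HDAC3 shRNA embryos, and mutant RNA alone in K26A rescue embryos. In the gene counts used here, the knockdown and the transgene could not be checked. No read was counted in any of the 24 samples, control included, for HDAC3 itself (FBgn0025825) or for CG45100, which has the same annotated exons. HDAC3 lies on chromosome 3R between 5472810 and 5474600 on the minus strand. Why these genes had no counts was not tested, so their absence does not show that HDAC3 was not expressed. The flanking gene Snr1, a Brahma complex subunit, stood at 309 ± 68.3 CPM (mean ± SD, n = 4; CPM, counts per 1000000 of the scaled library) in control and 332 ± 40.0 CPM in K26A rescue. The biotin ligase gene Hcs, whose annotated start faces that of HDAC3 on the opposite strand, is described among the higher genes.

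Totals ran from 13465282 to 22395147 counts in these 8 samples, which puts 3 counts at 0.134 to 0.181 CPM per sample. Samples with the same replicate number deviated together from their genotype means (r = 0.527 to 0.593 in the 4 control and K26A pairs, across genes), and the number was a block in the fit. On the first principal component, which held 52.1% of the variance of the 8 samples, control was at -15.7, -10.1, 82.1 and 56.7 and K26A rescue at -85.8, -59.5, 28.0 and 4.27. Each K26A sample thus lay below the control of its own number, and in both groups replicates 1 and 2 lay below replicates 3 and 4. Control replicate 3 held the most RNA of late genes: the 32 gut protease genes of the table summed to 3.05, 16.8, 731 and 85.6 CPM in control replicates 1 to 4, against 2.49, 20.3, 15.9 and 4.39 CPM in K26A rescue. The part of embryo age in the differences below was not tested, and values for the separate replicate pairs are given where they differ.

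Among changes of at least 2-fold, K26A rescue differed from control mainly by lower RNA. Of 10003 genes tested, 88 (0.88%) were higher and 1111 (11.1%) lower in K26A rescue, where a call needs at least a 2-fold change and, in edgeR's quasi-likelihood test with Benjamini-Hochberg adjustment, an adjusted p up to 0.05. Lower genes made up 92.7% of the calls. The median log2 fold change over all genes tested was 0.09, with 5834 genes above 0 and 4169 below. With library totals alone as the scale, the median of all genes moved to -0.10, and 45 genes were higher and 1298 lower. Without the replicate block, 30 (0.3%) were higher and 314 (3.14%) lower. All 314 lower genes and 29 of the 30 higher genes were also calls of the blocked fit. In replicates 1 and 2 alone 372 genes (3.91%) were higher and 1246 (13.1%) lower, and in replicates 3 and 4 alone 104 (1.01%) were higher and 798 (7.76%) lower. Leaving out control replicate 3 left 82 higher (0.812%) and 917 lower (9.08%). At an unadjusted p under 0.05 and whatever the fold, 26.4% of the genes tested were higher and 19.5% lower.

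Most of the lower genes were weakly expressed in control. Between 1 and 10 CPM in control, 728 of 2536 genes (28.7%) were lower in K26A rescue, against 221 of 4281 (5.16%) between 10 and 100 CPM and 12 of 1965 (0.611%) at 100 CPM or more. Below 1 CPM, 150 of 1221 (12.3%) were lower and 40 (3.28%) higher. The median control level was 3.22 CPM for the lower genes, 1.52 CPM for the higher genes and 21.8 CPM for all genes tested. Of the higher genes 25.9% had a single exon, against 10.1% of the lower genes and 10.9% of all. Non-coding RNAs made up 15 of the 88 higher genes, 12 of the 1111 lower genes and 293 of all. One higher gene, Smr, had a control mean at or above 100 CPM.

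**Figure D1:**
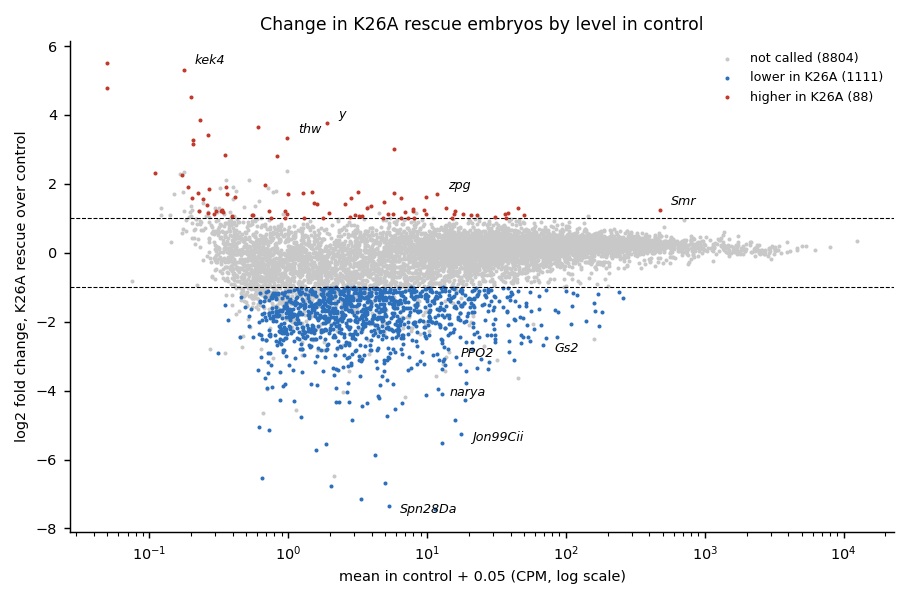
Each point is 1 of the 10003 genes tested, by its mean level in control (x axis, CPM on a log scale after adding 0.05) and its log2 fold change in K26A rescue over control (y axis); dashed lines mark 2-fold. The 1111 genes called lower lie mostly between 1 and 10 CPM, and few called genes lie above 100 CPM.

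The genes described first are the 14 lower and 14 higher with the lowest adjusted p among those with a name, a mean of at least 5 CPM in the higher group and the same direction in all 4 pairs. The lowest adjusted p on the lower side belonged to narya, which encodes a RING finger protein of meiotic recombination (FBgn0031018, X from 19475063 to 19476055, plus strand, 1 exon). It stood at 11.97, 13.8, 11.8 and 10.6 CPM in control replicates 1 to 4 and at 0.519, 0.448, 0.983 and 1.32 CPM in K26A rescue, so that every K26A sample was far below every control (-3.95 ± 0.35, adjusted p = 7.68e-07, log2 fold change ± SE). Spn28Da (FBgn0051902, 2L from 7887693 to 7889129, minus strand, 4 exons), a serine protease inhibitor of the serpin family, had 2.96, 3.16, 4.59 and 10.4 CPM in control. In K26A rescue the values were 0, 0, 0.0447 and 0.0602 CPM, all under the level of 3 counts (-7.35 ± 0.70, adjusted p = 2.18e-06, a fitted value that depends on the prior count). Both genes were also low in every other genotype with the hairpin: the group means were 0.379 to 0.872 CPM for narya and 0.0408 to 0.0679 CPM for Spn28Da. Neither passed the direct test of K26A against WT rescue (adjusted p = 0.923 and 0.819).

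Blood cell and glial genes were among the leading falls. PPO2 (FBgn0033367, 2R from 9042261 to 9044709, minus strand, 4 exons), the prophenoloxidase of crystal cells, was at 32.5, 33.1, 52.4 and 37.4 CPM in control and 5.66, 4.99, 6.12 and 9.51 CPM in K26A rescue. The 2 ranges did not overlap (-2.57 ± 0.31, adjusted p = 1.28e-05). Pxn (FBgn0011828, 3L from 2601455 to 2630064, minus strand, 10 exons) encodes peroxidasin, a basement membrane enzyme made by hemocytes. Its control values of 8.91, 9.48, 17.7 and 18.1 CPM and K26A values of 1.35, 1.63, 4.96 and 4.76 CPM show the split between replicates 1 and 2 and replicates 3 and 4, with a similar ratio on each side (-2.19 ± 0.25, adjusted p = 8.76e-06; -2.64 in replicates 1 and 2 and -1.97 in 3 and 4). Gs2 (FBgn0001145, X from 11422832 to 11430197, plus strand, 5 exons), glutamine synthetase 2 of glia, was at 52.8, 52.95, 74.8 and 94.5 CPM in control against 8.41, 7.73, 13.3 and 13.2 CPM (-2.68 ± 0.34, adjusted p = 2.77e-05).

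Several metabolic enzymes fell. Prx6c (FBgn0033518, 2R from 10418718 to 10419761, plus strand, 4 exons), a peroxiredoxin, was at 36.5, 46.3, 36.4 and 51.01 CPM in control and 9.19, 8.97, 11.4 and 15.8 CPM in K26A rescue (-1.91 ± 0.18, adjusted p = 2.3e-06). The ranges did not overlap. Consecutive enzymes of pyrimidine breakdown are encoded by CRMP (dihydropyrimidinase, FBgn0023023) and pyd3 (β-ureidopropionase, FBgn0037513). For CRMP, control samples ranged from 13.8 to 24.3 CPM and K26A samples from 5.04 to 11.6 CPM (-1.23 ± 0.15, adjusted p = 2.43e-05). For pyd3 the values were 19.5, 20.6, 19.03 and 25.5 CPM in control and 8.21, 10.3, 10.01 and 10.4 CPM in K26A rescue (-1.12 ± 0.11, adjusted p = 2.64e-06), and its change was just past the 2-fold threshold. The CRMP call did not hold without the block (adjusted p = 0.11). Lsd-1 (FBgn0039114, 3R from 23763857 to 23766662, plus strand, 7 exons), the lipid droplet protein perilipin 1, fell from 17.2 ± 2.94 CPM to 5.14 ± 1.11 CPM (-1.75 ± 0.19, adjusted p = 5.43e-06). Its samples did not overlap.

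The other leading falls were a small heat shock protein, peptidase-like and secreted proteins. Hsp67Bc (FBgn0001229, 3L from 9371511 to 9372497, minus strand, 1 exon) was at 8.96, 20.7, 8.94 and 13.97 CPM in control and 1.71, 2.802, 1.295 and 1.99 CPM in K26A rescue (-2.72 ± 0.31, adjusted p = 8.76e-06). All K26A samples were below the lowest control. Nepl18 (FBgn0039611), a neprilysin-like gene, ranged from 5.78 to 10.7 CPM in control and from 0.727 to 2.41 CPM in K26A rescue (-2.56 ± 0.27, adjusted p = 4.31e-06). Obp56a (FBgn0034468), of the odorant-binding protein family, fell from 9.57 ± 1.395 CPM to 1.98 ± 1.098 CPM (-2.41 ± 0.30, adjusted p = 2.43e-05). The extracellular matrix gene fat-spondin (FBgn0026721) was at 11.98 ± 3.798 CPM and 3.67 ± 1.82 CPM (-1.81 ± 0.21, adjusted p = 1.18e-05). For fiz (FBgn0030594, fezzik), an oxidoreductase gene of the X chromosome, the values were 5.22, 4.59, 12.7 and 15.7 CPM in control and 0.467, 1.12, 3.71 and 4.15 CPM in K26A rescue (-2.17 ± 0.23, adjusted p = 5.24e-06). Without the block the adjusted p was 0.0539 for fat-spondin and 0.0871 for fiz. The samples of the 2 groups did not overlap for any of the 14 leading lower genes, a description of genes that were chosen for a low p and the same direction in all pairs. Over all 10003 genes tested there was no overlap for 931, among them 592 of the 1111 lower and 36 of the 88 higher genes.

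**Figure D2:**
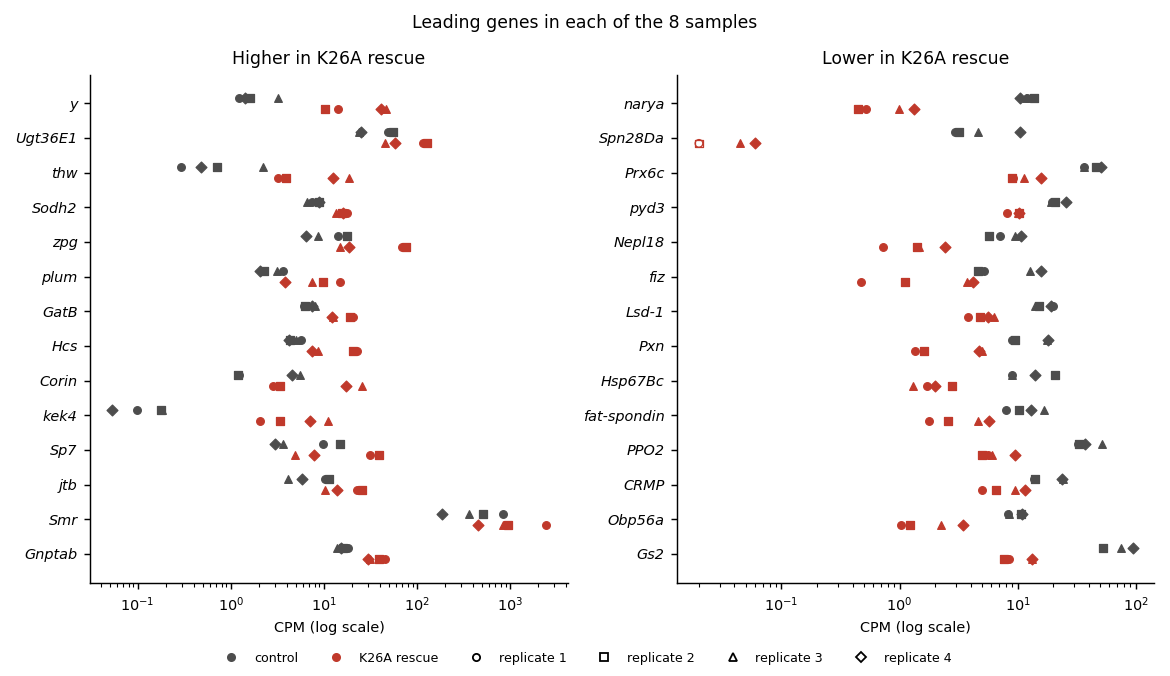
CPM (x axis, log scale) of the 14 leading higher and 14 leading lower genes in the 4 control (grey) and 4 K26A rescue (red) samples, with the marker shape giving the replicate number; open markers at the left edge stand for 0. The 2 groups are separate for all 14 lower genes and for 8 of the 14 higher genes, beside 931 of the 10003 genes tested.

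Among the higher genes the lead was y (yellow, FBgn0004034, X from 356509 to 361245, plus strand, 2 exons), a gene of cuticle pigment and an allele marker of the shRNA stock. It was at 1.23, 1.61, 3.201 and 1.44 CPM in control and 14.2, 10.4, 46.95 and 41.1 CPM in K26A rescue (3.76 ± 0.30, adjusted p = 2.43e-07). Every K26A sample was above every control. Group means in the other hairpin genotypes were 14.7 to 21.6 CPM, and K26A and WT rescue were not separated by the direct test (adjusted p = 0.184). The gene thw (FBgn0037487, 3R from 7224414 to 7241138, plus strand, 6 exons) followed the same pattern, with 0.296, 0.716, 2.24 and 0.480 CPM in control, 3.22, 3.92, 18.9 and 12.6 CPM in K26A rescue and 11.7 CPM on average in WT rescue (3.33 ± 0.34, adjusted p = 3.39e-06 against control). For both genes the K26A values of replicates 3 and 4 were above those of 1 and 2.

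The largest rise of the leading genes was that of kek4 (FBgn0032484, 2L from 13212335 to 13215350, minus strand, 4 exons), one of the Kekkon transmembrane proteins with leucine-rich repeats. It was near the counting floor in control, at 0.0985, 0.179, 0.181 and 0.0533 CPM, and at 2.08, 3.36, 11.2 and 7.16 CPM in K26A rescue (5.32 ± 0.77, adjusted p = 8.64e-05). Its mean was 6.19 ± 3.65 CPM in HDAC3 shRNA and 0.739 ± 1.06 CPM in WT rescue, and K26A was higher than WT rescue (3.17 ± 0.63, adjusted p = 0.0127). Gnptab (FBgn0033392, 2R from 9204410 to 9207124, minus strand, 3 exons), named for the mammalian enzyme that tags lysosomal hydrolases, was at 18.1, 16.2, 13.8 and 15.2 CPM in control and 45.97, 39.2, 31.4 and 29.9 CPM in K26A rescue (1.2 ± 0.22, adjusted p = 0.000551). WT rescue embryos had 15.9 ± 2.89 CPM, close to control, and the difference between K26A and WT rescue passed the test (1.2 ± 0.22, adjusted p = 0.00666). Corin (FBgn0033192), a serine protease gene, was at 1.23, 1.19, 5.56 and 4.58 CPM and 2.86, 3.42, 25.7 and 17.2 CPM. K26A replicates 1 and 2 were below control replicates 3 and 4, so that the groups overlapped (1.78 ± 0.25, adjusted p = 7.92e-05; adjusted p = 0.204 without the block). It too was higher than in WT rescue (1.48 ± 0.25, adjusted p = 0.00382).

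Smr (FBgn0265523, X from 12684203 to 12742618, minus strand, 12 exons), which encodes the HDAC3 partner SMRTER, was the most abundant of the higher genes. Control samples held 851, 514, 362 and 185 CPM and K26A samples 2443, 952, 849 and 454 CPM. The level spread widely over the replicates in both groups, which overlapped (1.23 ± 0.21, adjusted p = 0.000352; adjusted p = 0.365 without the block). HDAC3 shRNA embryos held more, 2995 ± 1875 CPM (-1.44 ± 0.21, adjusted p = 0.00042 for K26A against HDAC3 shRNA), and WT rescue embryos 1454 ± 981 CPM, which the test did not separate from K26A (adjusted p = 0.447).

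The other leading higher genes were zpg, Hcs, Ugt36E1, Sodh2, GatB, plum, Sp7 and jtb. zpg (FBgn0024177), the germline gap junction protein Innexin 4, was at 14.3, 17.7, 8.76 and 6.503 CPM in control and 70.1, 77.1, 14.8 and 18.5 CPM in K26A rescue. The rise was larger in replicates 1 and 2 (2.19) than in replicates 3 and 4 (1.04), a difference that was not tested (1.71 ± 0.20, adjusted p = 1.3e-05 over all). Hcs (FBgn0037332, 3R from 5474899 to 5485393, plus strand, 12 exons) had 5.71, 4.35, 5.07 and 4.26 CPM in control and 22.9, 20.9, 8.58 and 7.52 CPM in K26A rescue (1.48 ± 0.21, adjusted p = 6.04e-05), and WT rescue had 8.96 ± 2.63 CPM (adjusted p = 0.0719 for K26A against WT rescue). Whether the transgene's DNA fragment adds reads to Hcs was not tested. Among enzymes, Ugt36E1, a UDP-glycosyltransferase, rose from 38.4 ± 16.5 CPM to 87.2 ± 41.2 CPM (1.16 ± 0.10, adjusted p = 3.59e-07), and Sodh2, a sorbitol dehydrogenase, from 7.99 ± 1.103 CPM to 15.9 ± 1.82 CPM (1.0 ± 0.11, adjusted p = 8.76e-06). GatB, a subunit of the mitochondrial glutamyl-tRNA amidotransferase, went from 6.95 ± 0.888 CPM to 16.2 ± 4.33 CPM (1.17 ± 0.16, adjusted p = 4.51e-05). The immunoglobulin superfamily gene plum went from 2.78 ± 0.738 CPM to 8.99 ± 4.603 CPM (1.58 ± 0.20, adjusted p = 2.43e-05), the melanization protease gene Sp7 from 7.86 ± 5.62 CPM to 20.9 ± 17.1 CPM (1.28 ± 0.19, adjusted p = 0.000101), and jtb from 7.92 ± 3.48 CPM to 18.2 ± 7.33 CPM (1.22 ± 0.20, adjusted p = 0.000239). Of the 14 leading higher genes, 7 calls did not hold without the block: Smr and Corin, as given, Ugt36E1 (adjusted p = 0.167), zpg (0.0938), Sp7 (0.34) and jtb (0.171), and Sodh2, whose log2 fold change dropped to 0.99. Leaving out single samples took Sodh2 to between 0.84 and 0.99 in 6 of 8 cases, and GatB to 0.97 without K26A replicate 1.

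Genes of differentiated tissues were described next, by lists of known members. Of the 15 epidermal and tracheal genes tested, 7 were lower and 0 higher, against 11.1% lower among all genes tested, and the median log2 fold change was -1.04. mwh, a formin-like regulator of hair position, stood at 9.26, 9.66, 17.4 and 17.2 CPM in control and 1.71, 2.58, 2.41 and 5.24 CPM in K26A rescue (-2.17 ± 0.28, adjusted p = 3.41e-05). kkv, the chitin synthase, stood at 13.1, 12.5, 34.4 and 21.96 CPM and 4.05, 4.26, 9.47 and 9.75 CPM (-1.57 ± 0.22, adjusted p = 6.43e-05; adjusted p = 0.0565 without the block). For both genes all K26A samples were below all controls. The hair gene sha (shavenoid) fell from 8.46 ± 3.36 CPM to 1.302 ± 0.612 CPM (-2.7 ± 0.62, adjusted p = 0.00328), and f (forked), an actin bundling protein, from 3.44 ± 1.24 CPM to 1.81 ± 1.004 CPM (-1.02 ± 0.25, adjusted p = 0.00528), a call at the 2-fold edge that did not hold without the block (adjusted p = 0.413) or without K26A replicate 2 (log2 fold change -0.96). The count of 7 was the same without control replicate 3, against 9.08% of all genes, and was 2 without the block, against 3.14%.

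Muscle structure genes fell in 11 of 19 cases, beside 11.1% lower among all genes tested, with none higher and a median of -1.67. sls, which encodes the giant sarcomere proteins Sallimus and kettin, was at 18.96, 13.8, 66.7 and 23.8 CPM in control and 5.66, 7.57, 25.4 and 11.2 CPM in K26A rescue (-1.27 ± 0.27, adjusted p = 0.00202). The genes of 2 myosin light chains, Mlc1 and Mlc2, had their highest values in control replicate 3, 8.37, 30.2, 79.9 and 35.9 CPM for Mlc1 against 3.32, 12.7, 8.22 and 5.18 CPM in K26A rescue (-2.09 ± 0.61, adjusted p = 0.0145). Mlc2 stood at 27.1, 105, 315 and 112 CPM and 12.4, 47.5, 30.6 and 21.7 CPM (-1.98 ± 0.59, adjusted p = 0.0152). TpnC73F, a troponin C, fell from 19.5 ± 10.7 CPM to 4.72 ± 2.22 CPM (-1.84 ± 0.48, adjusted p = 0.0074). Every K26A sample was below the control of its number for these 4 genes, but their groups overlapped. Without control replicate 3, 2 of the 19 were lower (adjusted p = 0.0569 for Mlc1 and 0.0704 for Mlc2), against 9.08% of all genes. Without K26A replicate 4 the adjusted p was 0.0562 for Mlc1 and 0.0569 for Mlc2, and without K26A replicate 3 it was 0.0523 for Mlc2. The fit without the block called 0, against 3.14% of all genes (adjusted p = 0.329 for sls, 0.179 for Mlc1, 0.164 for Mlc2 and 0.12 for TpnC73F). In that edgeR fit 12 were lower at an unadjusted p under 0.05, as were 11.5% of all genes.

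Gut proteases had the list median farthest from 0, -3.03, and 10 of the 19 tested were lower, against 11.1% of all genes tested. Jon99Cii, a Jonah serine protease, was at 0.0985, 1.07, 62.2 and 6.82 CPM in control and 0, 0.224, 0.581 and 0.181 CPM in K26A rescue (-5.25 ± 0.99, adjusted p = 0.000804), and its neighbour Jon99Ciii at 0.0985, 0.835, 56.7 and 6.08 CPM and 0.104, 0.280, 0.536 and 0.0602 CPM (-4.87 ± 1.0, adjusted p = 0.00142). Only control replicate 3 and, less so, replicate 4 stood far above the K26A samples. These paralogs share sequence, so reads could be split between them. Jon65Ai ranged from 0 to 12.3 CPM in control and 0.0519 to 0.134 CPM in K26A rescue (-4.46 ± 1.05, adjusted p = 0.00391), and Jon74E from 0.537 to 11.5 CPM and 0.156 to 0.903 CPM (-3.1 ± 0.76, adjusted p = 0.00504). The list's median was 0.01 in replicates 1 and 2, where 9 members could be tested and edgeR called 0 (1 of them lower at an unadjusted p under 0.05, against 24.5% of all genes there), and -5.46 in replicates 3 and 4, where 15 of 24 were lower, against 7.76% of all genes. With 10 fewer members tested than in the 4 pairs, the first value covers other genes than the second, and the difference between them was not tested. Without control replicate 3, 3 of 20 were lower (adjusted p = 0.0583 for Jon65Ai), against 9.08% of all genes. Without the block 4 were lower (0.0611 for Jon74E), against 3.14% of all genes.

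Of 59 Tweedle and Cpr cuticle protein genes tested, out of 117 in the table, 14 were lower and 1 higher, with a median of -1.32. Among all genes tested 11.1% were lower and 0.88% higher. Cpr72Ec stood at 1.08, 1.85, 1.09 and 1.23 CPM in control and 0.156, 0.0560, 0.536 and 0.241 CPM in K26A rescue (-2.41 ± 0.46, adjusted p = 0.000876), without overlap. Cpr49Ac fell from 0.868 ± 0.271 CPM to 0.135 ± 0.173 CPM (-2.88 ± 0.61, adjusted p = 0.00183; adjusted p = 0.0571 without the block). Lcp65Af had 0.197, 1.43, 49.8 and 0.160 CPM in control and 0.0519, 0, 0.447 and 0.0602 CPM in K26A rescue (-5.52 ± 1.42, adjusted p = 0.00653), so that its call rested on control replicate 3 (adjusted p = 0.146 without it). Against the list, Cpr5C (FBgn0029811, X from 5804677 to 5805344, plus strand, 2 exons) rose: it was at 0.148, 0.239, 2.72 and 0.0533 CPM in control and 2.29, 4.93, 4.24 and 7.22 CPM in K26A rescue (2.81 ± 0.65, adjusted p = 0.00332). Its means were 0.0696 ± 0.0214 CPM in WT rescue, 0.0952 ± 0.0321 CPM in HDAC3 shRNA, 3.15 ± 1.08 CPM in Y303F rescue and 12.6 ± 2.63 CPM in HEBI rescue, and K26A was higher than WT rescue (5.95 ± 0.83, adjusted p = 0.000624). Without control replicate 3, 2 of 60 cuticle genes were lower and 1 was higher, against 9.08% lower and 0.812% higher among all genes. Without the block 2 of 59 were lower, against 3.14% of all genes.

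Of 11 hemocyte genes 5 were lower, against 11.1% of all genes tested. Among them were PPO2 and Pxn, described above, the crystal cell factor lz and the collagen IV gene Col4a1. Col4a1 was at 21.9, 57.7, 84.3 and 60.3 CPM in control and 7.79, 20.01, 23.4 and 15.5 CPM in K26A rescue (-1.68 ± 0.48, adjusted p = 0.0123; adjusted p = 0.21 without the block). lz was scarce, 0.759 ± 0.128 CPM and 0.348 ± 0.187 CPM (-1.16 ± 0.34, adjusted p = 0.0145; 0.139 without the block and 0.0517 without K26A replicate 1 or 2). The list's median was -0.45. The count of 5 was the same without control replicate 3, against 9.08% of all genes, and was 2 without the block, against 3.14%. Among 15 genes of neurons and glia 4 were lower, beside the same 11.1%: Gs2, the synaptic vesicle gene nSyb, the RNA-binding protein gene cpo and the glial factor repo. nSyb stood at 2.32, 3.28, 5.798 and 5.33 CPM and 0.571, 1.01, 3.62 and 2.05 CPM (-1.37 ± 0.32, adjusted p = 0.00362), cpo at 11.7 ± 6.69 CPM and 5.05 ± 3.33 CPM (-1.3 ± 0.26, adjusted p = 0.00113) and repo at 4.53 ± 1.19 CPM and 2.33 ± 1.09 CPM (-1.07 ± 0.34, adjusted p = 0.0221). Each was lower in all 4 pairs. Without the block these 3 calls did not hold (adjusted p = 0.344, 0.364 and 0.44), which left 1 of the 15 lower, against 3.14% of all genes. The repo call was also lost without control replicate 1 (0.0693).

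**Figure D3:**
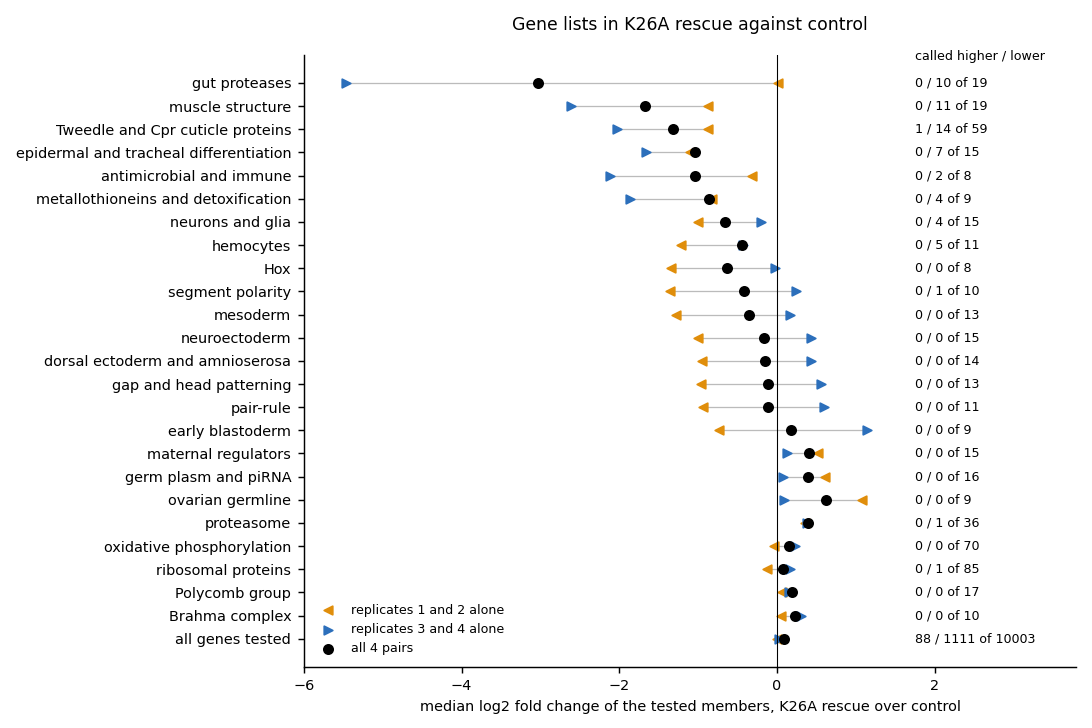
Median log2 fold change (x axis, K26A rescue over control) of the tested members of 24 gene lists and of all genes tested, from all 4 pairs (black), replicates 1 and 2 alone (orange) and replicates 3 and 4 alone (blue), with the number called higher and lower at the right. The 6 tissue lists lie left of 0 in the fit over the 4 pairs, and patterning lists lie left of 0 in replicates 1 and 2 and near or right of it in replicates 3 and 4.

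The genes that pattern the early embryo had 1 call over the 4 pairs. In 9 lists of 6 to 15 tested genes (early zygotic activators, early blastoderm, gap and head, pair-rule, segment polarity, Hox, mesoderm, neuroectoderm, and dorsal ectoderm) the one call was gsb-n, a paired-box segmentation gene (control 1.92, 2.21, 6.04 and 6.72 CPM, K26A 0.364, 1.01, 5.27 and 3.55 CPM; -1.03 ± 0.33, adjusted p = 0.0228; 0.737 without the block and 0.0633 without control replicate 1). The gsb-n call was also lost without K26A replicate 1 (0.0731) or 2 (0.0529). At an unadjusted p under 0.05 over the 4 pairs, 6 of 8 Hox genes were lower, beside 19.5% of all genes. All 8 Hox genes had a log2 fold change below 0, with a median of -0.635. In each of the remaining lists 0 to 3 genes were lower at that level. In replicates 1 and 2 alone, 8 of 10 segment polarity, 7 of 8 Hox, 8 of 13 mesoderm and 8 of 15 neuroectoderm genes were lower, against 13.1% of all genes in those replicates. In replicates 3 and 4 alone, where 7.76% of all genes were lower, none of these was. The 11 pair-rule genes had a median of -0.94 in replicates 1 and 2, with 4 lower, and of 0.60 in replicates 3 and 4, with 0 lower. Their mean log2 CPM was 5.83, 5.31, 6.37 and 6.48 in control and 4.67, 4.61, 7.08 and 6.99 in K26A rescue. It was thus lower in K26A in replicates 1 and 2 and higher in replicates 3 and 4. The 9 early blastoderm genes, which include the cellularization genes nullo and Sry-alpha, had mean log2 CPM of 7.7, 7.77, 5.26 and 5.43 in control and 7.1, 7.05, 6.08 and 6.92 in K26A rescue, with the same change of sign, and 6 of the 9 were called higher in replicates 3 and 4 alone, against 1.01% of all genes. For the Hox genes the means were 2.81, 2.53, 4.08 and 4.01 and 1.25, 1.54, 4.31 and 3.82, lower in K26A in replicates 1, 2 and 4, and the list's median was -1.34 in replicates 1 and 2 and -0.03 in replicates 3 and 4. The medians of the other 6 lists were below 0 in replicates 1 and 2 and above 0 in replicates 3 and 4. This difference between the replicate pairs was not tested.

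**Figure D4:**
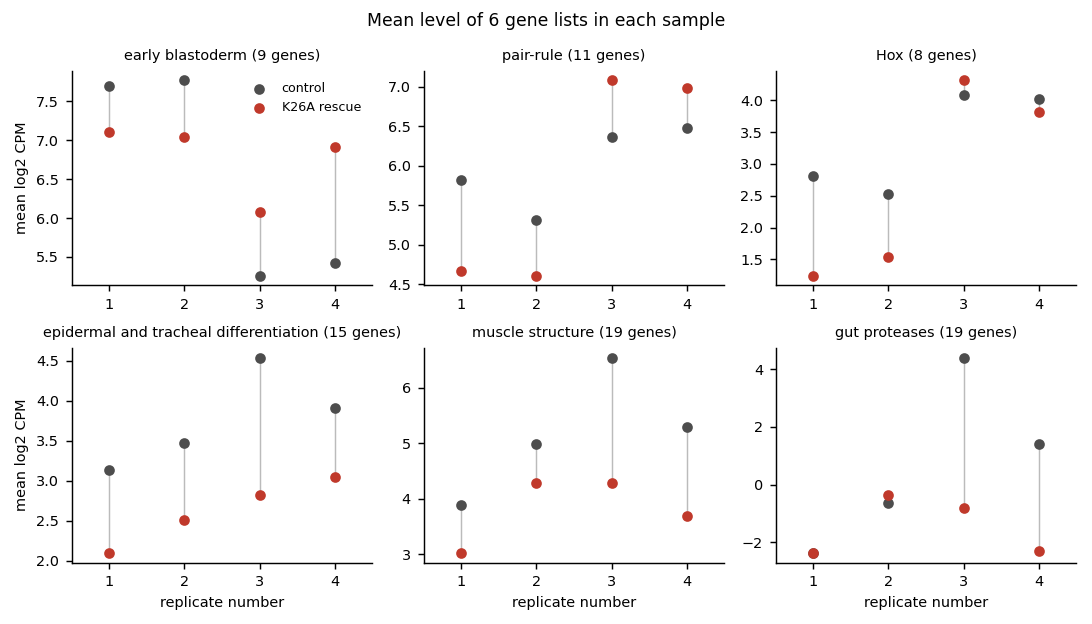
Mean log2 CPM (y axis) of 6 gene lists in each control (grey) and K26A rescue (red) sample, by replicate number (x axis); lines join samples of the same number. Early blastoderm and pair-rule genes are lower in K26A rescue in replicates 1 and 2 and higher in replicates 3 and 4, and epidermal and muscle genes are lower in all 4 pairs.

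Lists of maternal RNA, of chromatin factors and of the basic machinery of the cell had few calls or none. None of the 15 maternal regulators, 16 germ plasm and piRNA genes, 9 ovarian germline genes and 9 eggshell and yolk genes tested was called by edgeR, whose call needs a 2-fold change. DESeq2 with the block called 1 eggshell gene lower. At an unadjusted p under 0.05, whatever the fold, 9 maternal regulators, 9 germ plasm and piRNA genes and 5 ovarian germline genes were higher, beside 26.4% of all genes. Their medians were 0.40, 0.39, 0.63 and 0.63, beside 0.09 for all genes tested. All 15 maternal regulators had a log2 fold change above 0 (with library totals as the scale the list's median was 0.22). In replicates 1 and 2 alone, 5 maternal regulators and 5 of 9 ovarian germline genes were called higher, beside 3.91% of all genes, and in replicates 3 and 4 alone none was, beside 1.01%. bam, a germline differentiation factor, was at 47.3, 56.2, 32.01 and 24.6 CPM in control and 117, 104, 47.9 and 54.2 CPM in K26A rescue (0.99 ± 0.12, adjusted p = 1.57e-05), just under 2-fold. Of 16 corepressors and deacetylases, Smr was the one called, and no histone acetyltransferase, Polycomb group, Brahma complex or nuclear lamina gene was, although 5 of 8 acetyltransferase, 7 of 17 Polycomb group and 7 of 10 Brahma complex genes were higher at an unadjusted p under 0.05 and below 2-fold, beside the 26.4% of all genes at any fold. Among 85 ribosomal protein genes RpS10a was lower (-1.69 ± 0.37, adjusted p = 0.00247), and among 36 proteasome genes Rpt6R, a paralog of the ATPase subunit Rpt6, was lower (-1.09 ± 0.35, adjusted p = 0.0222; 0.618 without the block and 0.0991 without control replicate 1). The Rpt6R call was also lost without K26A replicate 1 (0.065) or 2 (0.0673). The proteasome list as a whole lay the other way, with a median of 0.39 and 32 of 36 log2 fold changes above 0. At an unadjusted p under 0.05, 24 of its genes were higher and 2 lower, beside 26.4% and 19.5% of all genes. No cell cycle, mitochondrial ribosome, oxidative phosphorylation, Halloween enzyme, or dosage and sex determination gene was called. In the cell cycle list all 20 log2 fold changes were above 0, up to 0.83, and 13 had an unadjusted p under 0.05, beside the same 26.4%. Of 8 tubulin genes, alphaTub85E (-1.49 ± 0.36, adjusted p = 0.00416) and betaTub97EF (-1.0 ± 0.33, adjusted p = 0.0275) were lower, beside 11.1% of all genes tested. Neither call held without the block (adjusted p = 0.161 and 0.217). The betaTub97EF call was also lost without control replicate 3 (0.129) and without K26A replicate 1, 3 or 4 (0.0518, 0.0934 and 0.0865).

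Lists of stress, immune, detoxification and hormone receptor genes were set beside the 11.1% lower among all genes in the same way. In the heat shock list 3 of 15 (20%) were lower: Hsp67Bc, the inducible chaperone Hsp68, and l(2)efl, a small heat shock protein. Hsp68 was at 27.9, 95.7, 39.1 and 26.2 CPM in control and 2.23, 6.61, 40.4 and 10.96 CPM in K26A rescue (-2.38 ± 0.65, adjusted p = 0.00973), with K26A replicate 3 at the level of its control and an adjusted p of 0.407 without the block. For l(2)efl the values were 1.18, 4.35, 23.5 and 3.68 CPM and 1.04, 2.24, 0.804 and 1.51 CPM (-2.02 ± 0.73, adjusted p = 0.0388). Its call did not hold without control replicate 3 (adjusted p = 0.225), without K26A replicate 3 or 4 (0.133 and 0.105) or without the block (0.108). The list's median was 0.11, and at an unadjusted p under 0.05 it held 3 higher and 4 lower genes. Of 19 cell death and stress genes 3 (15.8%) were lower, and 5 were higher and 3 lower at an unadjusted p under 0.05. The stress factor Xrp1 was at 26.9, 29.4, 63.7 and 37.5 CPM and 11.8, 18.6, 13.5 and 14.2 CPM (-1.37 ± 0.30, adjusted p = 0.00253), without overlap. Gadd45, a stress response gene, fell from 3.59 ± 1.43 CPM to 0.982 ± 0.634 CPM (-1.94 ± 0.47, adjusted p = 0.00497) and the metalloprotease gene Mmp1 from 3.92 ± 3.78 CPM to 1.27 ± 0.682 CPM (-1.46 ± 0.49, adjusted p = 0.0281; 0.185 without control replicate 3 and 0.151 without the block). The Mmp1 call was also lost without K26A replicate 1, 2 or 4 (0.0657, 0.0625 and 0.0562). Of 9 metallothionein and detoxification genes 4 were lower. MtnA, a metallothionein, was at 5.52, 14.6, 76.5 and 26.7 CPM and 1.82, 7.902, 3.93 and 3.07 CPM (-2.59 ± 0.58, adjusted p = 0.00268; 0.0572 without the block). GstD2, a glutathione S-transferase, was at 5.02, 20.6, 6.83 and 5.92 CPM and 2.29, 3.08, 1.74 and 1.02 CPM (-2.15 ± 0.59, adjusted p = 0.00954; 0.164 without the block). The cytochrome P450 genes Cyp6a8 (-1.57 ± 0.44, adjusted p = 0.0109) and Cyp6g1 (-1.61 ± 0.46, adjusted p = 0.0132) were also lower, and without the block their adjusted p-values were 0.0766 and 0.0618 (0.0776 for Cyp6g1 without control replicate 3). The immune regulators PGRP-LB (-2.69 ± 0.84, adjusted p = 0.0195) and pirk (-1.79 ± 0.67, adjusted p = 0.0446) were called among 8 immune genes. Neither was called without control replicate 3 (adjusted p = 0.232 and 0.42) or without the block (0.14 and 0.0843). The calls were also lost without K26A replicate 3 (0.082 and 0.133) or K26A replicate 4 (0.0678 and 0.127). Among 23 nuclear receptor and ecdysone genes 3 (13.0%) were lower: Hr4 (-1.15 ± 0.30, adjusted p = 0.00754), Eip78C (-1.44 ± 0.41, adjusted p = 0.0128) and Hr3 (-1.05 ± 0.38, adjusted p = 0.0378). No call held without the block (adjusted p = 0.108, 0.105 and 0.217). The Hr3 call was lost without any 1 of 6 of the 8 samples, with adjusted p-values of 0.0602 to 0.101.

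The genes that the study singled out were given whatever their change, and some of them were picked by the study from these samples, so that their direction is not independent evidence. Cad99C, a cadherin, was at 18.9, 12.5, 26.8 and 20.4 CPM in control and 2.55, 3.42, 13 and 8.91 CPM in K26A rescue (-1.76 ± 0.27, adjusted p = 0.000165; 0.21 without the block). sog, an inhibitor of Dpp signalling expressed in the neuroectoderm, was at 200.1, 79.6, 185 and 138 CPM in control and 82.6, 35.4, 294 and 179 CPM in K26A rescue. It was lower in replicates 1 and 2 and higher in replicates 3 and 4, and the fit over the 4 pairs gave -0.33 ± 0.26, adjusted p = 0.322. CG32772 was at 21.03, 18.8, 30.4 and 25.1 CPM and 49.2, 48.8, 26.7 and 25.8 CPM (0.64 ± 0.22, adjusted p = 0.029), below 2-fold, with the whole difference in replicates 1 and 2. CG17698 was at 5.57, 6.56, 5.44 and 4.64 CPM and 13.9, 18.2, 2.32 and 2.77 CPM (0.42 ± 0.36, adjusted p = 0.369), higher in the first 2 pairs and lower in the others. sd, the TEAD transcription factor Scalloped, was at 41.7 ± 14.1 CPM and 55.5 ± 13.1 CPM (0.42 ± 0.22, adjusted p = 0.147). ebi, a TBL1-like component of the SMRTER complex, was at 296 ± 125 CPM and 364 ± 129 CPM (0.34 ± 0.09, adjusted p = 0.00883), higher in every pair but under 2-fold. Of the other marker genes of the stocks, sc (0.21 ± 0.20, adjusted p = 0.398), v (0.46 ± 0.49, adjusted p = 0.473) and w (-0.82 ± 0.38, adjusted p = 0.0946) did not pass the test, and sev was too low to be tested, with 0.394 to 1.87 CPM in control and 0 to 0.402 CPM in K26A rescue.

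K26A rescue was next set against WT rescue, whose transgene differs by the mutated residue at the same landing site. The 2 transgenes were in separate fly lines, and other differences between the lines were not tested. This comparison and the following ones share the K26A samples with the comparison against control, and the leading genes had been chosen in that one. K26A was higher than WT rescue for 16 genes (0.16%) and lower for 187 (1.87%). The lower count was 9 without the block, 4 in replicates 3 and 4 alone and 330 in replicates 1 and 2 alone. It also depended on single samples: it was 29 without WT rescue replicate 4, 39 without K26A replicate 2, and 70 to 106 without 1 of WT rescue replicates 1 and 2 or K26A replicates 1 and 4. The higher count was 9 without WT rescue replicate 2 or 4, and 4 without the block. Of the 14 leading lower genes 9 were also lower than in WT rescue. Prx6c had 27 ± 7.91 CPM in WT rescue against 11.3 ± 3.16 CPM in K26A rescue (-1.24 ± 0.18, adjusted p = 0.00112), fiz 6.62 ± 3.99 CPM against 2.36 ± 1.84 CPM (-1.6 ± 0.23, adjusted p = 0.000891) and Pxn 8.595 ± 4.23 CPM against 3.17 ± 1.95 CPM (-1.49 ± 0.25, adjusted p = 0.00299). The WT rescue means of these 3 genes lay between those of K26A rescue and control. The same order held for fat-spondin, Hsp67Bc, PPO2, Obp56a, Nepl18 and Gs2, with log2 fold changes of K26A over WT rescue from -1.66 to -1.1 and adjusted p-values from 0.00139 to 0.0304. In the epidermal list, mwh (-1.33 ± 0.28, adjusted p = 0.017), f (-1.13 ± 0.25, adjusted p = 0.02) and kkv (-1.16 ± 0.22, adjusted p = 0.00967) were lower than in WT rescue. Of the other tissue lists, 1 of 19 muscle, 2 of 11 hemocyte and 1 of 15 neuron and glia genes were lower than in WT rescue. No gut protease or cuticle protein gene was lower than in WT rescue. The gut protease median of K26A over WT rescue was 3.08, at low levels. The 32 genes summed to 2.08 to 4.36 CPM in the WT rescue samples and 2.49 to 20.3 CPM in the K26A samples.

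Led by adjusted p, 2 of the genes lower than in WT rescue were nearly absent from control. Drsl5, a drosomycin-like peptide gene (FBgn0035434, 3L from 3316781 to 3317144, plus strand, 1 exon), averaged 13.7 ± 8.195 CPM in WT rescue, 10.9 ± 2.498 CPM in Y303F rescue and 3.29 ± 1.08 CPM in HEBI rescue, against 0.260, 1.12, 0.581 and 0.482 CPM in the K26A samples (-4.41 ± 0.43, adjusted p = 1.26e-05). In HDAC3 shRNA and control it was at 0.0563 and 0.123 CPM. Tengl3 (FBgn0051679, 2L from 2237076 to 2238251, minus strand, 2 exons), an endonuclease G-like gene, had the same distribution, 5.29 ± 1.41 CPM in WT rescue, 7.17 ± 1.84 CPM in Y303F rescue and 4.83 ± 1.87 CPM in HEBI rescue against 0.312, 0.336, 0.849 and 0.783 CPM in K26A rescue (-3.23 ± 0.33, adjusted p = 1.7e-05). Both were higher in K26A rescue than in control, at low levels (2.25 ± 0.59, adjusted p = 0.00741 for Drsl5 and 1.92 ± 0.43, adjusted p = 0.00262 for Tengl3). Neither call against control held in replicates 1 and 2 alone (1.97, adjusted p = 0.0607 for Drsl5 and 0.946, adjusted p = 0.257 for Tengl3). Rpi, ribose-5-phosphate isomerase, was higher in K26A than in WT rescue: it was at 42.02, 42.6, 17.1 and 23.8 CPM in the K26A samples, 29.8 ± 8.45 CPM in control and 11.4 ± 1.87 CPM in WT rescue (1.44 ± 0.28, adjusted p = 0.011). The means of the other hairpin genotypes were 11.7 to 13.8 CPM, below those of K26A rescue and control, which the test did not separate (0.06 ± 0.27, adjusted p = 0.872 for K26A over control).

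Against HDAC3 shRNA, which carries no transgene, K26A rescue was higher for 102 genes (1.02%) and lower for 45 (0.45%), and for 12 and 7 without the block. The higher count was 58 without K26A replicate 3 and 67 and 63 without HDAC3 shRNA replicates 1 and 2, and the lower count was 71 without K26A replicate 1. Of the 14 leading lower genes none was lower in K26A rescue than in HDAC3 shRNA, and Nepl18 (1.11 ± 0.28, adjusted p = 0.0212) and fiz (1.29 ± 0.25, adjusted p = 0.00457) were higher. The remaining 12 did not pass, with log2 fold changes from -0.99 to 1.05, which does not show that the levels were the same. Tep2, a thioester-containing immune protein, was at 59.9, 48.5, 67.1 and 54.5 CPM in K26A rescue and 23.7 ± 1.62 CPM in HDAC3 shRNA (1.27 ± 0.10, adjusted p = 5.62e-07). GILT2, a lysosomal thiol reductase homologue (71.95 ± 11.1 against 33.1 ± 4.82 CPM; 1.12 ± 0.10, adjusted p = 1.91e-06), alpha-Est1, an esterase (13.3 ± 4.21 against 4.48 ± 0.660 CPM; 1.52 ± 0.14, adjusted p = 2.12e-06), and D2hgdh, a hydroxyglutarate dehydrogenase (14.7 ± 2.08 against 6.16 ± 0.484 CPM; 1.25 ± 0.16, adjusted p = 0.000121), followed. For Tep2, GILT2 and alpha-Est1 the WT rescue, like K26A, lay between HDAC3 shRNA and control, at 51.5, 66.7 and 16.04 CPM. Lower in K26A than in HDAC3 shRNA were Smr, given above, puc, a phosphatase that is a target of JNK signalling (64.6 ± 32.2 against 143 ± 67.1 CPM; -1.16 ± 0.12, adjusted p = 4.86e-06), the mucin-related gene Mur2B (7.94 ± 2.15 against 22.9 ± 5.23 CPM; -1.55 ± 0.18, adjusted p = 3.48e-05) and Sdb (6.21 ± 1.71 against 18.5 ± 3.78 CPM; -1.58 ± 0.22, adjusted p = 0.000331). Of the 59 cuticle protein genes tested, 13 were higher in K26A rescue than in HDAC3 shRNA, beside 1.02% of all genes, and 14 lower than in control, beside 11.1%. Without the block 12 genes in all were higher than in HDAC3 shRNA, so that not all 13 calls held there. The 117 genes of the list summed to 10.3 to 56.4 CPM in the HDAC3 shRNA samples and 23.8 to 166 CPM in the K26A samples.

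Against HEBI rescue, K26A rescue was higher for 46 genes (0.46%) and lower for 137 (1.37%), and for 8 and 14 without the block. Without K26A replicate 3 these counts were 106 and 274, and without K26A replicate 1 they were 26 and 57. The lower count was 71 without HEBI rescue replicate 1. jtb was low in HEBI rescue alone, at 0.786 ± 0.550 CPM against 22.8, 25.9, 10.2 and 13.97 CPM in the K26A samples (4.55 ± 0.24, adjusted p = 7.48e-10). bam was at 25.8 ± 6.81 CPM in HEBI rescue and 80.8 ± 34.8 CPM in K26A rescue (1.59 ± 0.12, adjusted p = 8.63e-08), CanB2, a calcineurin B subunit, at 24.95 ± 12.6 and 59.8 ± 41.3 CPM (1.13 ± 0.15, adjusted p = 0.00011), and Pus10, a pseudouridine synthase, at 4.004 ± 1.302 and 19.4 ± 7.04 CPM (2.26 ± 0.29, adjusted p = 0.00011). In the other direction, Cht10, a chitinase, averaged 53.6 ± 21.6 CPM in HEBI rescue and 64.8 ± 32.7 CPM in Y303F rescue. It was at 11.1 ± 4.12 CPM in WT rescue, 17.2 ± 6.46 CPM in control and 3.53, 3.08, 5.63 and 5.42 CPM in the K26A samples, lower than in HEBI rescue (-3.57 ± 0.26, adjusted p = 5.39e-08), WT rescue (-1.36 ± 0.26, adjusted p = 0.00967) and control (-1.94 ± 0.26, adjusted p = 4.13e-05) by the direct tests. The ABC transporter gene FBgn0010549 was at 12.6 ± 4.24 CPM in HEBI rescue and 0.907 ± 0.460 CPM in K26A rescue (-3.84 ± 0.25, adjusted p = 9.02e-09), alpha-Est1 at 28.1 ± 9.33 CPM (-1.08 ± 0.13, adjusted p = 6.18e-05) and stl, a secreted metalloprotease gene, at 9.31 ± 3.25 CPM against 2.95 ± 1.16 CPM (-1.64 ± 0.22, adjusted p = 0.000119).

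**Figure D5:**
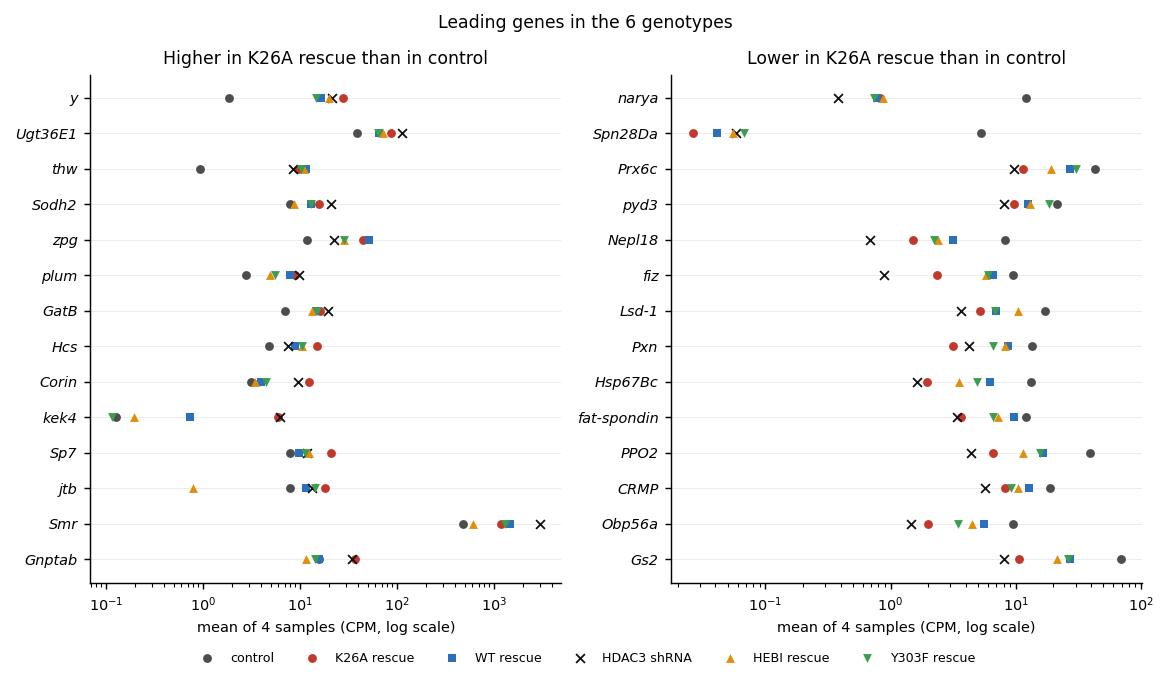
Mean CPM of 4 samples (x axis, log scale) of the leading genes in the 6 genotypes. For the 14 lower genes all hairpin genotypes lie left of control, and the WT rescue lies between K26A rescue and control for 13 of them; among the 14 higher genes kek4, Gnptab and Corin were called higher than in WT rescue.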

How the data were processed

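Total RNA of 24 whole-embryo samples (TruSeq Stranded Total RNA libraries, NextSeq) had been aligned to dm6 with STAR and counted per gene with featureCounts by the authors, and what was deposited is an unnormalized table of read counts for 17559 gene identifiers, of which 17253 matched a symbol and position in the reference annotation (release 115). Software versions, the annotation release behind the counts and the strand setting were not given in the sources used here, so that overlapping and antisense genes and near-identical copies remain uncertain. The submitters' notes name DESeq2 for the study's own comparisons, whose results were not used. Every column belonged to a labelled sample.

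The tests used edgeR 4.0.16 (R 4.3.3): TMM scaling, edgeR's default filter on low counts (10003 genes), and 1 quasi-likelihood fit over all 24 samples with a mean per genotype and the replicate number as an additive block (15 residual degrees of freedom). K26A rescue was contrasted with control, WT rescue, HDAC3 shRNA and HEBI rescue, and p-values were adjusted over all genes of a contrast. A call needed an adjusted p of 0.05 or less and at least a 2-fold change. CPM are counts per 1000000 of the scaled library, and list means are of log2 CPM with a prior count of 2. The script was tested on simulated data. The block was used because K26A and control samples were to be compared by replicate number. The labels do not say what a number marks. Deviations from genotype means correlated at r = 0.184 to 0.797 (median 0.615) in 60 same-numbered pairs, across genes. No 2 replicates were alike within sampling noise. The study's methods give the replicates of a genotype as separate embryo collections. In the main fit the block takes out the spread that same-numbered samples share. Its p-values measure the spread that is left, pooled over all 24 samples. The full spread between the collections of a genotype enters the fits without the block. In edgeR over all samples, that left 314 genes lower than in control, against 1111 with the block.

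Genes named were those with the lowest adjusted p under the conditions given in the text, up to 4 called members per gene list, every marker and study gene, and 4 genes per direction in each other contrast. These rules and all lists were chosen with earlier results of these data known. Alternatives were the fit without the block, the 2 groups alone, DESeq2 1.42.0 with and without the block, other scalings and filters, each replicate pair alone, and each sample left out.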

Additional observations from a re-analysis of the deposited data

Results flagged for a closer look

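Among 190 groups of 4 samples, for the leading genes, the marker and study genes and the named list members in control and in K26A rescue, 17 held a sample whose gap to the next was above Dixon's critical value for 4 samples, as a share of the group's range. The critical value flags about 1 group in 20 for independent, normally distributed values. These groups share the same samples, many of their genes were chosen by their calls, and CPM are skewed. That rate is therefore no baseline for the count here. In control, 12 of the 17 were the high value of replicate 3: the gut protease genes Jon99Cii (62.2 CPM), Jon99Ciii (56.7 CPM) and Jon65Ai (12.3 CPM), and the cuticle protein genes Lcp65Af (49.8 CPM) and Cpr5C (2.72 CPM). The chaperone gene l(2)efl (23.5 CPM), the metalloprotease gene Mmp1 (9.54 CPM), and the immune regulators PGRP-LB (4.89 CPM) and pirk (6.76 CPM) followed, with D2hgdh (11.4 CPM), Sdb (12.7 CPM) and the stock marker sev (1.87 CPM). GstD2 stood out in control replicate 2, at 20.6 CPM.

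In K26A rescue 4 values stood apart. Replicate 3 was high for Lcp65Af (0.447 CPM) and Jon65Ai (0.134 CPM), the second at the level of 3 counts. TpnC73F was high in replicate 2 (8.01 CPM), and pyd3 was low in replicate 1 (8.21 CPM).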

How the results depend on the processing

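More genes were called lower than higher in K26A rescue against control in every fit, but the counts varied. This holds for calls, which need a 2-fold change. At an unadjusted p under 0.05 and any fold, more genes were higher (26.4%) than lower (19.5%) in the main fit. Without the replicate block the genes called higher and lower were 30 and 314 against control, 4 and 9 against WT rescue, 12 and 7 against HDAC3 shRNA and 8 and 14 against HEBI rescue. Of 100 named genes called against control, 33 kept the call without the block. With the 2 groups alone and the block, the counts were 35 and 699 against control, 13 and 260 against WT rescue, 52 and 38 against HDAC3 shRNA, and 8 and 8 against HEBI rescue. With the 2 groups alone and no block, chosen after seeing the data, they were 7 and 133, 1 and 0, 1 and 2, and 1 and 4 in the same order of contrasts as above. Beside the 0 from edgeR, 420 genes were lower than in WT rescue at an unadjusted p under 0.05. DESeq2 without the block called 47 and 682 against control, 75 lower against WT rescue, 44 and 17 against HDAC3 shRNA and 20 and 37 against HEBI rescue. DESeq2 with the block called 34 and 295 against WT rescue. Library totals alone gave 45 higher against control. The cause of these changes was not tested.

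The replicate pairs differed. In replicates 1 and 2 alone the counts were 372 higher against control, 37 and 330 against WT rescue, 182 higher against HDAC3 shRNA and 464 and 740 against HEBI rescue. In replicates 3 and 4 alone they were 1 and 4 against WT rescue, 52 and 131 against HDAC3 shRNA and 12 and 9 against HEBI rescue. The log2 fold change of the gut protease gene Jon25Bii was 0.01 in replicates 1 and 2 alone. Leaving out 1 sample at a time gave 66 to 96 higher and 917 to 1133 lower against control, 9 to 19 and 29 to 235 against WT rescue, 58 to 122 and 37 to 71 against HDAC3 shRNA, and 26 to 106 and 57 to 274 against HEBI rescue.

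Depth limits genes under about 0.18 CPM, the level of 3 counts in the shallowest of these samples. Such levels carry fold changes that depend on the prior count. Embryo age, parental chromosomes and transgene cannot be told apart from genotype in this design, and the hairpin target itself had no counts.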

Other observations

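Families of detoxification and digestive enzymes were also lower in K26A rescue than in control. They were chosen after their values were seen, so the counts are a description, beside 11.1% lower among all genes tested. Of 22 UDP-glycosyltransferase genes tested, which conjugate sugars to small molecules, 14 were lower and Ugt36E1 was higher, with a median log2 fold change of -1.52. Ugt35C1 stood at 2.91, 5.84, 3.62 and 4.48 CPM in control and at 0.156, 0.0560, 0 and 0.0602 CPM in K26A rescue, where no sample passed the level of 3 counts. Of 53 cytochrome P450 genes 26 were lower and none higher (median -1.19). Cyp9f2 stood at 4.38, 6.32, 10.3 and 8.96 CPM in control and at 1.30, 2.07, 2.90 and 3.91 CPM in K26A rescue. Glutathione S-transferases were lower in 8 of 34 cases (median -0.41). Of 8 maltase genes 4 were lower. Mal-A1 stood at 6.80, 9.30, 15.04 and 17.5 CPM in control and at 1.71, 0.785, 2.59 and 0.602 CPM in K26A rescue. Without the block the lower counts were 6 UDP-glycosyltransferases, 10 cytochrome P450 genes, 2 glutathione S-transferases and 2 maltases, beside 3.14% of all genes. Without control replicate 3 they were 13, 23, 6 and 3, beside 9.08% of all genes.

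Secreted and membrane protein families had similar shares. Of 12 odorant-binding protein genes 7 were lower and 1, Obp58b, was higher. Of 17 neprilysin and neprilysin-like peptidase genes 9 were lower (median -1.55), of 19 serpins 9 (median -0.97), and of 24 tetraspanins 10 (median -0.77). Spn43Aa, a serpin, was at 19.4, 21.1, 25.2 and 26.3 CPM in control and at 3.58, 2.52, 4.78 and 9.99 CPM in K26A rescue. Nep2, a neprilysin, was at 9.51, 13.8, 30.7 and 22.4 CPM in control and at 3.06, 4.43, 4.33 and 6.50 CPM in K26A rescue. The ranges of these 2 genes did not overlap between the groups. Without the block the lower counts were 4 odorant-binding protein genes, 3 neprilysins, 3 serpins and 4 tetraspanins, beside 3.14% of all genes. Gustatory receptors gave 1 higher gene, Gr94a, and none lower among 11 tested.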
